A study of Mus musculus with 14 samples.

Results

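The class II and class IV histone deacetylases (HDACs) of the mouse are encoded by 7 genes, and their mRNA levels were followed here in activated CD4+ T cells that lacked HDAC1, with either 1 or 2 alleles of *Hdac2* left. The members were taken by gene name, as *Hdac4*, *Hdac5*, *Hdac7*, and *Hdac9* (class IIa), *Hdac6* and *Hdac10* (class IIb), and *Hdac11* (class IV). They made up 7 of 43674 genes with a value in every sample of the first experiment and 7 of 32449 in the second. The first experiment compared 4 WT with 4 HDAC1cKO-HDAC2HET samples, and the second compared 3 WT with 3 HDAC1cKO samples. All mice were C57BL/6, of both sexes, and between 6 and 12 weeks old. HDAC1cKO-HDAC2HET mice were *Hdac1* fl/fl *Hdac2* fl/+ with *Cd4*-Cre, which deletes floxed alleles in developing T cells, so that a single *Hdac2* allele was left. In HDAC1cKO cells both *Hdac2* alleles remained, and littermates served as WT. In both experiments naive CD4+ T cells from spleen and lymph nodes were sorted and activated for 3 days with anti-CD3, anti-CD28, and IL-2, and in the second experiment they were then restimulated with anti-CD3 for 12 hours. The 2 experiments differed in culture and preparation, so mutants were compared with WT only inside an experiment.

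Histone deacetylases remove acetyl groups from lysines. Class IIa enzymes have little catalytic activity of their own and act as signal-controlled corepressors: they bind MEF2 transcription factors in the nucleus, recruit the NCoR/SMRT complex with HDAC3, and leave the nucleus bound to 14-3-3 proteins once kinases have phosphorylated them, for example after T cell receptor triggering. HDAC7 is known for its high expression in thymocytes and its control of *Nr4a1* in developing T cells. HDAC6 is a cytoplasmic deacetylase of tubulin and HSP90, HDAC10 a polyamine deacetylase, and HDAC11, the class IV enzyme, a lysine defatty-acylase.

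mRNA was measured as FPKM, fragments per kilobase of transcript relative to all mapped fragments of the library, so levels can be set against each other between genes. The depth of a library, read from how wide the Cufflinks bounds were at low values, ranged from 23900000 to 56000000 fragments. The deleted genes followed the labels. *Hdac1* was at 78.8, 79.6, 77.8, and 76.3 FPKM in WT and at 6.99, 10.7, 8.85, and 6.65 in HDAC1cKO-HDAC2HET samples, and *Hdac2* was at 58.2 to 60.3 in WT and 34.0 to 37.0 in the mutants. In the restimulated experiment *Hdac1* was at 72.3 to 81.1 in WT and 8.52 to 12.1 in HDAC1cKO samples, whereas *Hdac2* was at 62.4 to 78.2 and 74.8 to 88.1. T cell markers (*Cd3d*, *Cd3e*, *Cd3g*, *Cd247*, *Cd4*, and *Lck*) summed to 1130 to 1232 FPKM in WT and 962 to 981 in HDAC1cKO-HDAC2HET samples. Of these 6 genes 5 fell, while *Cd247* rose from 75.4 FPKM ± 5.49 to 133 ± 4.25 (SD, n = 4). The CD8 T cell markers *Cd8a* and *Cd8b1* summed to 3.28 to 5.96 and 11.7 to 15.2. Most of this was *Cd8b1*, at 3.24 to 5.87 in WT and 11.4 to 14.8 in the mutants. *Cd8a* was low, at 0.0390 to 0.0858 and 0.315 to 0.574. In the restimulated samples these sums were 861 to 1125 and 1035 to 1184 for T cell markers, and 3.80 to 4.86 and 6.52 to 7.30 for CD8 T cell markers. B cell markers summed to at most 1.12 FPKM in any sample, and myeloid, NK, and erythroid markers with a value to at most 0.352. Of the myeloid markers, *Lyz2* and *Itgax* had a value of 0 in each WT sample, and *Csf1r* had no value. *Lyz2* reached at most 0.0148 FPKM in HDAC1cKO-HDAC2HET samples. *Itgam* was at 0.101 to 0.274 FPKM in WT and 0.0273 to 0.333 in HDAC1cKO-HDAC2HET samples. The part of the CD8 T cell markers in the values below was not tested, and in bulk RNA fewer cells with a transcript and less of it per cell cannot be told apart. *Xist*, which marks female cells, was at 58.9 to 65.2 FPKM in WT and at 26.0 to 33.7 in HDAC1cKO-HDAC2HET samples of the first experiment, without overlap, and whether sex makeup or *Xist* RNA per cell differed there was not tested. In the second it was at 42.9, 0.0188, and 33.2 in WT and at most 0.0435 in HDAC1cKO samples, so sex and genotype largely coincided there.

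Sequences upstream of the start sites are shown for class IIa genes, because 3 of them fell in HDAC1cKO-HDAC2HET cells and the fourth, *Hdac5*, did not pass the test. RefSeq promoters (GRCm38.p6, the mm10 build) were found for 6 of 7 members, with 10 start sites, and not for *Hdac10*. For each gene the 250 bases before the start site nearest to the edge of its locus in the files are given, 5′ to 3′ on the strand of the gene, which is the minus strand for all 4. They are chr1:92180342-92180591 for *Hdac4*, chr15:97844503-97844752 for *Hdac7*, chr12:34528890-34529139 for *Hdac9*, and chr11:102230173-102230422 for *Hdac5*, and none of them covers an annotated exon. Capitals mark matches on either strand to a GC box (GGGCGG), a RUNX site (TGTGGT), an ETS site (CCGGAAG), an E-box (CACGTG), or the MEF2 consensus.
Hdac4: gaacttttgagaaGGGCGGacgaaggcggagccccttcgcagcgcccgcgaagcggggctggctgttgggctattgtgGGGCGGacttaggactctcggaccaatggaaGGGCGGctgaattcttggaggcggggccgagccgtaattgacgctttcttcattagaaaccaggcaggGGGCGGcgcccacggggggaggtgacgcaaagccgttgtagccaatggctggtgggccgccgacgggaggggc
Hdac7: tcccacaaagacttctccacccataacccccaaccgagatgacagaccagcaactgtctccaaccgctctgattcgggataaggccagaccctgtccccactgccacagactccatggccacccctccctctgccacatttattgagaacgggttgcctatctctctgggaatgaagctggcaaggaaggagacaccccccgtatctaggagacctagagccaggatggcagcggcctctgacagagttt
Hdac9: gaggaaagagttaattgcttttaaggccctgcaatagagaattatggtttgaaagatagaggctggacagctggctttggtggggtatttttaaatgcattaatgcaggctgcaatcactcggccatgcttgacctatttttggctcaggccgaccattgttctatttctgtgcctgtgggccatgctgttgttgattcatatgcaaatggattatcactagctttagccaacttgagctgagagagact
Hdac5: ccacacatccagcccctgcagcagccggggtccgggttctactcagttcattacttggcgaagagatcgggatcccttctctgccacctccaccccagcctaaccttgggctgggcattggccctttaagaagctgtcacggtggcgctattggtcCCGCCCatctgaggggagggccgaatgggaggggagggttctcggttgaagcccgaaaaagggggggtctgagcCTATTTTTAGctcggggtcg
The *Hdac4* window held 4 GC boxes and had a GC content of 65.2%, and the *Hdac5* window held 1 GC box and 1 MEF2 match that started 20 bases before the start site. The *Hdac7* and *Hdac9* windows held none of these motifs and had GC contents of 56.4% and 43.6%, against a median of 52.4% over 32851 windows in the table. The motifs did not overlap each other in these windows. A GC box was present in 32.7% of all windows, a RUNX site in 14.05%, an ETS site in 6.91%, an E-box in 6.02%, and a MEF2 match in 2.92%. Of the windows not printed, that of *Hdac6* held 4 GC boxes and 1 RUNX site, that of *Hdac11* 1 GC box, and of the 3 inner start sites of *Hdac7* 1 had a GC box. A match describes these letters and is not a measured binding site.

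The members covered a wide range of levels, and *Hdac7* stood far above the others. In WT cells after 3 days it averaged 161 FPKM ± 4.40 (SD, n = 4), higher than 96.5% of the 15110 genes tested. It made up 79.6% ± 1.03 of the summed FPKM of the 7 genes. *Hdac10* (14.1 ± 1.97) and *Hdac5* (13.8 ± 0.897) followed, with ranges that overlapped each other, and then *Hdac6* (6.65 ± 0.453) and *Hdac4* (6.04 ± 0.450), which overlapped as well. *Hdac9* (0.416 ± 0.188) and *Hdac11* (0.132 ± 0.0136) were low and apart from each other, with 19.7% and 5.9% of the tested genes below them. In HDAC1cKO-HDAC2HET cells *Hdac7* remained highest at 88.7 FPKM ± 10.8, *Hdac5* stood above *Hdac10*, and *Hdac9* (0.163 ± 0.0258) and *Hdac11* (0.183 ± 0.0282) overlapped. In restimulated cells the order was *Hdac7*, *Hdac10*, *Hdac5* in both genotypes, with *Hdac10* and *Hdac5* overlapping in WT and apart in HDAC1cKO cells. The 7 genes together summed to 51.5% ± 0.808 of the FPKM of all 11 class I, II, and IV HDAC genes in WT cells after 3 days and to 54.9% ± 2.14 in HDAC1cKO-HDAC2HET cells, with ranges that overlapped.

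**Figure D1:**
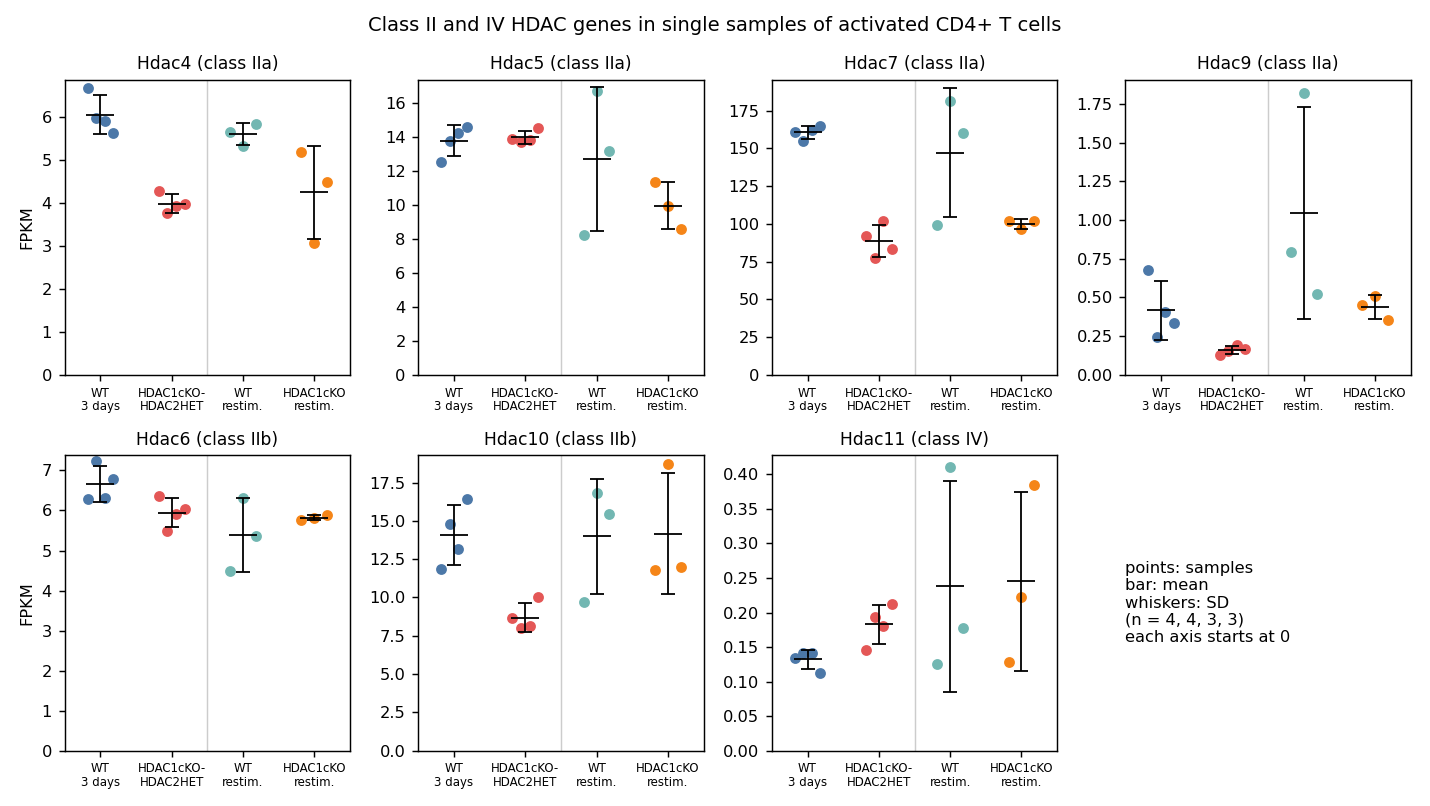
FPKM of the 7 genes (y axes, each from 0) in every sample (points) of the 4 groups, with the mean (bar) and SD (whiskers). *Hdac4*, *Hdac7*, *Hdac9*, and *Hdac10* were lower in all 4 HDAC1cKO-HDAC2HET samples than in any WT sample of that experiment, while restimulated WT samples were spread widely, from 99.4 to 181.6 FPKM for *Hdac7*.

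The first comparison asked how the genes changed when *Hdac1* and 1 allele of *Hdac2* were deleted. *Hdac4*, *Hdac7*, *Hdac9*, and *Hdac10* fell in HDAC1cKO-HDAC2HET cells, while *Hdac5*, *Hdac6*, and *Hdac11* did not pass the test. Changes were tested with limma on log2(FPKM + 0.1) over 15110 genes with Benjamini-Hochberg adjustment, and a gene was called at an adjusted p of at most 0.05. Calls were common in this experiment: 27.6% of all genes tested were called lower and 24.2% higher, so the 4 of 7 members called lower and the 0 called higher are to be read against these shares. An unadjusted p under 0.05 was found for 5 of 7 members, the fifth being *Hdac6*, which was lower, and for 8539 of the 15110 genes tested. The direction of the majority of calls depended on the scaling: with libraries scaled to 1 median, 4461 genes were called higher and 3247 lower, against 3658 and 4173 without, while the same 4 members were called lower. The median change of the members was -0.59 on the log2 scale, and that of all genes tested was -0.045. No member was called with a change of at least 2-fold, a rule that 11.2% of all genes met. The groups did not overlap for 5 of 7 members, as for 50.4% of all genes.

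Among class IIa genes, *Hdac7*, the corepressor with the highest level, was at 161, 155, 162, and 165 FPKM in WT and at 92.1, 77.3, 102, and 83.5 in HDAC1cKO-HDAC2HET samples. All mutant samples were below all WT samples, and their mean was 0.552 of that of WT. On the log2 scale *Hdac7* fell by 0.86 (SE 0.082, limma adjusted p = 7.66e-05, exact permutation p = 0.0286, the smallest that 4 against 4 samples can give). Each value rested on an interval of counting error equal to that of at least 2594 fragments. The row of an overlapping gene moved the other way. The 3′ end of *Hdac7* (chr15:97792664-97844502, minus strand) overlaps by 29 bases the 3′ end of *Slc48a1*, a heme transporter gene on the plus strand (chr15:97778520-97792692). *Slc48a1* stood at 0 in the 4 WT samples and at 38.1, 43.8, 45.7, and 40.8 FPKM in the mutants. In the restimulated experiment it stood at 0 in all 3 WT samples and at 30.6, 29.3, and 22.2 in HDAC1cKO samples. A value listed at 0 can be a failed estimate, and whether reads of the 2 rows were assigned differently between the genotypes was not tested. With both rows summed, WT samples were at 155 to 165 FPKM and HDAC1cKO-HDAC2HET samples at 121 to 148, without overlap, and the fall was 0.30 on the log2 scale (adjusted p = 0.00451), an alternative chosen after the data had been seen. FPKM is divided by transcript length, so fragments moved between the 2 rows need not leave this sum unchanged. The sum therefore cannot show how *Hdac7* alone moved. With every row inside the *Hdac7* span added, among them short unnamed loci in WT replicate 2 with up to 2582 FPKM over at most 86 bases, the change was -1.37 and no longer passed the test (adjusted p = 0.266).

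**Figure D2:**
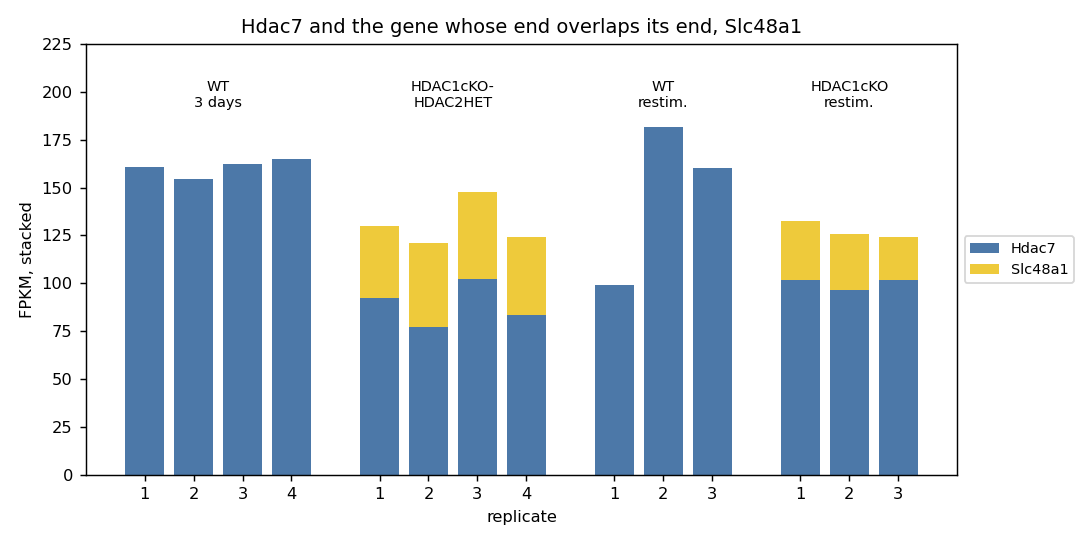
FPKM of *Hdac7* (blue) and of *Slc48a1* (yellow), stacked, in each sample (x axis, replicate within its group). *Slc48a1* was listed at 0 in every WT sample and at 22.2 to 45.7 FPKM in every mutant sample. In the first experiment the summed height was 155 to 165 FPKM in WT and 121 to 148 in HDAC1cKO-HDAC2HET samples. This sum was chosen after the data had been seen and cannot show how *Hdac7* alone moved.

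*Hdac4*, which encodes another MEF2-binding corepressor, was at 6.68, 5.97, 5.91, and 5.62 FPKM in WT and 4.26, 3.75, 3.93, and 3.97 in HDAC1cKO-HDAC2HET samples. The groups did not overlap, and the ratio of the means was 0.659. It fell by 0.59 on the log2 scale (SE 0.067, limma adjusted p = 1.88e-04). All 8 values came from a locus of the same extent (chr1:91928779-92180341, minus strand).

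*Hdac9*, the least abundant class IIa gene, was at 0.680, 0.246, 0.405, and 0.333 FPKM in WT and 0.131, 0.157, 0.193, and 0.169 in HDAC1cKO-HDAC2HET samples. The ranges were close to each other but did not overlap, and WT replicate 1 was high. It fell by 0.91 on the log2 scale (SE 0.25, limma adjusted p = 0.0177), and the ratio of the means was 0.391. The size of this change depended on the pseudocount, with -0.28 at a pseudocount of 1 and -1.22 at 0.01, and with a filter at a mean FPKM of 1 *Hdac9* was not tested and 3 members were called lower. These values rested on few reads, since the Cufflinks bounds were as wide as those of 29.5 to 63.9 fragments in WT and 8.3 to 15 in the mutants. The locus measured (from chr12:34047580 to 34528874) begins at an inner start site and covers only part of the annotated gene (chr12:34047580-34917095), so transcripts from the outer start are not described.

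*Hdac5*, the remaining class IIa gene, was at 12.5, 13.7, 14.2, and 14.6 FPKM in WT and 13.8, 13.7, 13.8, and 14.5 in HDAC1cKO-HDAC2HET samples. The ranges overlapped, the change was 0.02 on the log2 scale (95% interval -0.096 to 0.14, limma adjusted p = 0.737), and the interval corresponds to a ratio of 0.936 to 1.10. The Cufflinks lower bound of *Hdac5* was 0 in 2 of 4 WT samples and in 1 of 4 mutants, which marks poorly determined values even though the estimates lie close together. Summed over *Hdac4*, *Hdac5*, and *Hdac9*, WT samples were at 19.9 to 20.5 FPKM and mutants at 17.6 to 18.7. The share of *Hdac7* in all 7 genes was 78.6% to 80.8% in WT and 70.5% to 76.1% in the mutants.

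Of the class IIb genes, *Hdac10* fell and *Hdac6* did not pass the test. *Hdac10*, whose enzyme deacetylates polyamines, was at 11.9, 14.8, 13.2, and 16.4 FPKM in WT and 8.66, 7.99, 8.10, and 10.002 in HDAC1cKO-HDAC2HET samples. All mutants were below all WT samples, and the change was -0.68 on the log2 scale (SE 0.11, limma adjusted p = 0.00143). *Hdac6*, whose enzyme deacetylates tubulin, was at 6.28, 7.24, 6.31, and 6.79 FPKM in WT and 6.37, 5.49, 5.90, and 6.03 in the mutants. Mutant replicate 1 lay inside the WT range, and the change was -0.16 (95% interval -0.31 to -0.0062, limma adjusted p = 0.0779).

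*Hdac11*, the class IV gene, was at 0.133, 0.142, 0.141, and 0.113 FPKM in WT and 0.145, 0.194, 0.180, and 0.212 in HDAC1cKO-HDAC2HET samples. All mutant values were above all WT values, with a ratio of the means of 1.38, but the change of 0.28 on the log2 scale did not pass the test (SE 0.15, limma adjusted p = 0.151). At this level, where bounds equalled those of 10.1 to 29.0 fragments, the pseudocount of 0.1 is about as large as the value and shrinks the change. Without the intensity trend of the variances the adjusted p was 0.0267, and *Hdac11* was then the 1 member called higher.

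**Figure D3:**
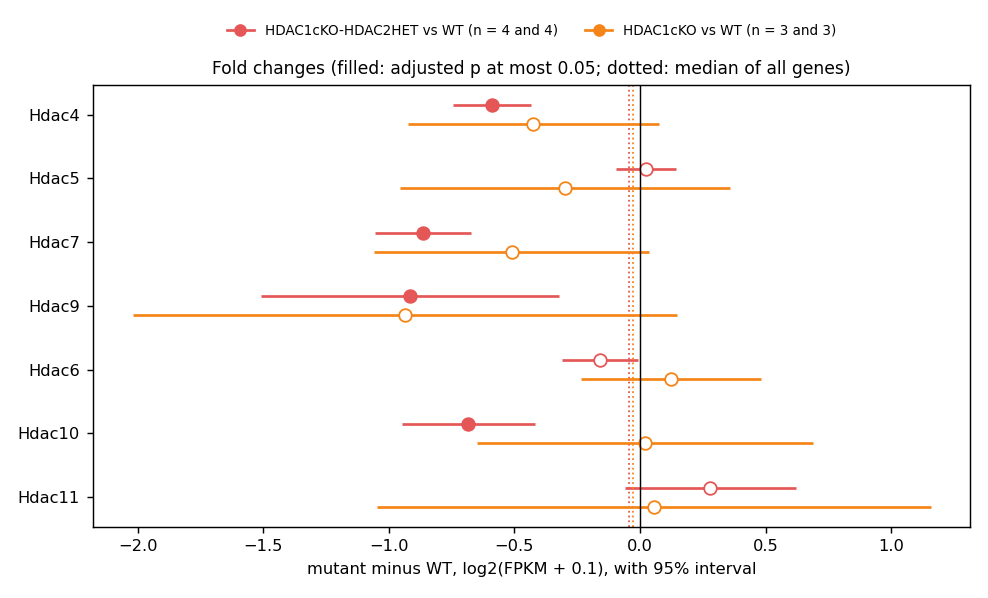
Mutant minus WT on the log2(FPKM + 0.1) scale (x axis) with 95% intervals for the 7 genes in both experiments, filled where the adjusted p was at most 0.05. The 4 filled points lie between -0.59 and -0.91, all in HDAC1cKO-HDAC2HET cells, and the dotted lines mark the medians of all genes tested, -0.045 and -0.029.

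The second comparison asked how the genes changed when *Hdac1* alone was deleted and the cells were restimulated. No member passed the test in HDAC1cKO cells, and none had an unadjusted p under 0.05 in the main fit, although some did under alternatives given at the end. Among 13913 genes limma called 10, or 0.0719%, and 1997 had an unadjusted p under 0.05. The members had a median change of -0.30 on the log2 scale, and all genes tested one of -0.029. The groups did not overlap for 2 of 7 members (*Hdac4* and *Hdac9*), as for 22.3% of all genes. With 3 against 3 samples the exact permutation test cannot give a p under 0.1.

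The WT samples of this experiment were far apart. Replicate 1 had the lowest WT value of 5 of 7 members and replicate 2 the highest of 6 of 7. *Hdac7* was at 99.4, 181.6, and 160 FPKM in WT and 102, 96.4, and 102 in HDAC1cKO samples. The mutants lay close together, below WT replicates 2 and 3 but on either side of WT replicate 1, and the change was -0.51 (95% interval -1.06 to 0.035, limma adjusted p = 0.371, exact permutation p = 0.3). Without WT replicate 1 it was -0.77 with an adjusted p of 0.0693, and without WT replicate 2 it was -0.34. With sex, read from *Xist*, as a covariate it was -0.86, in a fit that set the mutants against WT replicate 2 alone. Summed with *Slc48a1*, *Hdac7* changed by -0.16 (adjusted p = 0.763).

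*Hdac4* was at 5.64, 5.32, and 5.83 FPKM in WT and 5.17, 3.07, and 4.48 in HDAC1cKO samples, and the groups did not overlap (change -0.42, 95% interval -0.93 to 0.077, limma adjusted p = 0.403). The change ranged from -0.58 without HDAC1cKO replicate 1 to -0.21 without HDAC1cKO replicate 2, and was -0.35 with the sex covariate. Its loci differed in extent between samples here. Those of WT replicates 1 and 2 reached the 3′ end of the gene, whereas WT replicate 3 and the HDAC1cKO samples had it as a row of its own. In the HDAC1cKO files that row carried the name *Hdac4* under another identifier, covered 2392 bases (chr1:91928785-91931176), and stood at 2.55, 2.22, and 2.35 FPKM. Taking these rows in place of the long loci gave a change of -1.21 (adjusted p = 0.0505), which sets unlike stretches of the gene against each other and was chosen after the data had been seen.

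*Hdac9* was at 0.795, 1.82, and 0.522 FPKM in WT and 0.454, 0.510, and 0.353 in HDAC1cKO samples. All mutants were below all WT samples, but WT replicate 2 was far above the other two, and the change of -0.94 had a 95% interval of -2.02 to 0.15 (limma adjusted p = 0.397). Without WT replicate 2 the change was -0.48, and without WT replicate 3 it was -1.29. With the sex covariate, which set the mutants against WT replicate 2 alone, it was -1.85. The locus (chr12:34371503-34528889) was shorter than in the first experiment. *Hdac5* was at 8.23, 16.7, and 13.1 FPKM in WT and 11.3, 9.94, and 8.57 in HDAC1cKO samples, with overlapping ranges, a change of -0.30 (95% interval -0.95 to 0.36, limma adjusted p = 0.633), and a Cufflinks lower bound of 0 in 3 of 6 samples. The change ranged from -0.58 without WT replicate 1 to -0.073 without WT replicate 2, was -0.24 and -0.20 without WT replicate 3 and HDAC1cKO replicate 3, and was -0.75 with the sex covariate.

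*Hdac6* was at 4.49, 6.32, and 5.35 FPKM in WT and 5.76, 5.81, and 5.89 in HDAC1cKO samples, all 3 of them inside the WT range (change 0.12, 95% interval -0.24 to 0.48, limma adjusted p = 0.723). *Hdac6* lies on the X chromosome, and with the sex covariate its change was -0.12 (adjusted p = 0.823). *Hdac10* was at 9.73, 16.8, and 15.4 FPKM in WT and 11.8, 18.7, and 11.98 in HDAC1cKO samples, with a change of 0.02 (95% interval -0.65 to 0.69, limma adjusted p = 0.981). *Hdac11* was at 0.125, 0.411, and 0.177 FPKM and 0.128, 0.223, and 0.384, with a change of 0.05 (95% interval -1.05 to 1.16, limma adjusted p = 0.971). The interval of *Hdac11* includes its change in HDAC1cKO-HDAC2HET cells, and that of *Hdac10* ends just short of the change there. The Cufflinks lower bound of *Hdac11* was 0 in 4 of 6 samples, so its level was hardly determined. With the sex covariate *Hdac10* changed by -0.28 and *Hdac11* by -0.64, both without passing the test. All 7 members were then below 0, and WT replicate 2 was the 1 WT sample without *Xist*, so that this fit set the mutants against that sample alone.

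**Figure D4:**
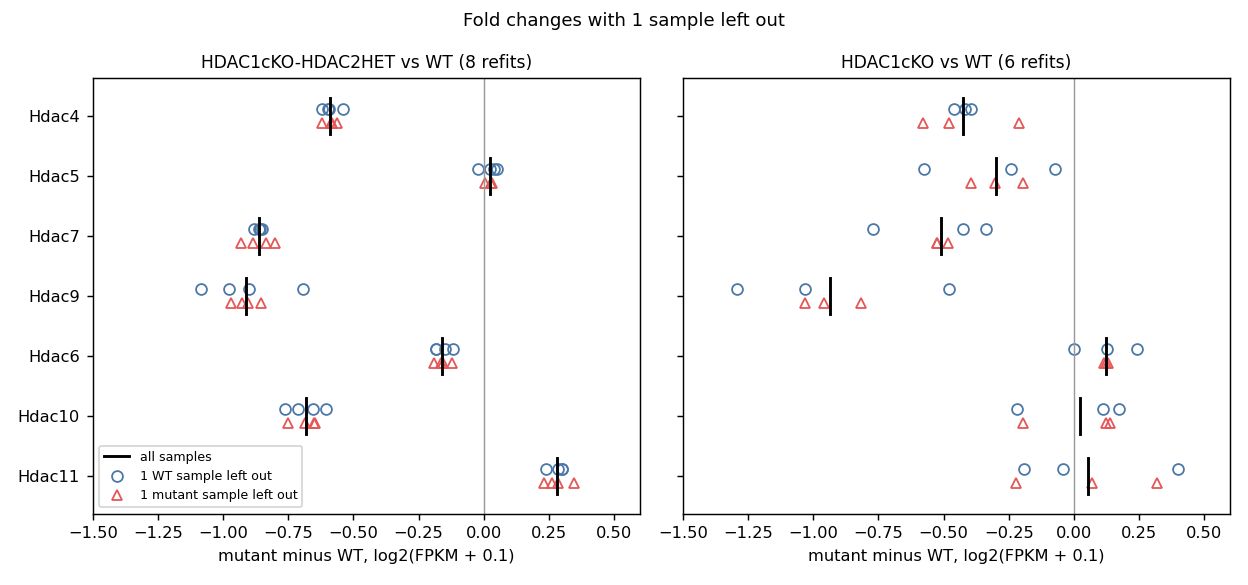
Change of each gene on the log2(FPKM + 0.1) scale (x axis) with all samples (black line) and with 1 WT (circles) or 1 mutant (triangles) sample left out. In HDAC1cKO-HDAC2HET cells the change of *Hdac7* stayed between -0.93 and -0.80, while in HDAC1cKO cells it ranged from -0.77 to -0.34 and those of *Hdac10* and *Hdac11* changed sign.

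Whether the 2 mutants differed in their change was tested as a contrast over all 14 samples. No member passed this test, while 15.7% of 12355 genes did. *Hdac10* had the difference farthest from 0 in the fit without a sex covariate (HDAC1cKO-HDAC2HET change minus HDAC1cKO change -0.71 on the log2 scale, 95% interval -1.33 to -0.079), with an unadjusted p under 0.05 as the 1 of 7 members but a limma adjusted p of 0.122. Leaving out restimulated WT replicate 1 brought it to -0.47. Over all genes, 3630 of 12355 had an unadjusted p under 0.05 in this contrast. *Hdac7* differed by -0.35 (95% interval -0.85 to 0.15, adjusted p = 0.338) and *Hdac6* by -0.28 (adjusted p = 0.217). *Hdac4* differed by -0.16 (95% interval -0.59 to 0.26) and *Hdac9* by 0.02 (95% interval -1.06 to 1.11), where unlike loci were measured in the 2 experiments. *Hdac5* differed by 0.32 (adjusted p = 0.440) and *Hdac11* by 0.23 (adjusted p = 0.773). With a sex covariate the order changed: *Hdac9* differed by 0.93, *Hdac11* by 0.92, *Hdac5* by 0.77, *Hdac10* by -0.41, and *Hdac7* by -0.003. That fit set the HDAC1cKO samples against restimulated WT replicate 2 alone, the 1 WT sample without *Xist*. Genotype, restimulation, sex, and experiment cannot be told apart in this contrast.

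The remaining class I genes moved less than the deleted ones. *Hdac3*, the catalytic subunit of NCoR/SMRT, was at 47.4 FPKM ± 0.815 (SD, n = 4) in WT and 51.0 ± 1.73 in HDAC1cKO-HDAC2HET cells and rose by 0.11 on the log2 scale (limma adjusted p = 0.0192). *Hdac8* went from 5.77 ± 0.173 to 4.90 ± 0.230 and fell by 0.23 (limma adjusted p = 0.00465). Neither passed the test in HDAC1cKO cells (adjusted p = 0.651 and 0.760).

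Genes that work with class IIa HDACs moved in both directions in HDAC1cKO-HDAC2HET cells, where 51.8% of all genes tested were called in either direction. Of 16 kinases that phosphorylate them or act upstream of such kinases 13 were tested, of which 5 rose, 4 fell, and 4 did not pass the test, with a median change of 0.041. *Mark4*, a microtubule affinity-regulating kinase, rose from 7.73 FPKM ± 0.337 to 19.2 ± 1.55 (1.30 on the log2 scale, limma adjusted p = 3.75e-06), and *Prkd3*, a protein kinase D, fell from 11.2 ± 0.580 to 5.74 ± 0.131 (-0.95, limma adjusted p = 4.20e-06). Of the 7 14-3-3 genes 4 rose and none fell, with a median of 0.098 (1 of them was lower with an unadjusted p under 0.05 and was not called). *Ywhaq* rose from 99.7 FPKM ± 3.10 to 130 ± 4.18 and *Ywhab* from 89.6 ± 3.87 to 118 ± 3.96. Of 4 MEF2 genes 3 were tested: *Mef2d* rose from 24.7 FPKM ± 3.30 to 36.9 ± 5.29 (0.57, limma adjusted p = 0.00467), *Mef2b* was at 37.6 ± 8.56 and 34.5 ± 6.05 and did not pass, and the third did not pass either. In the NCoR/SMRT list, which shares *Hdac3* with class I, 2 of 6 genes rose, 2 fell, and the median was -0.046. The 2 that fell encode its TBL1-type subunits, with *Tbl1x* going from 42.5 FPKM ± 1.44 to 28.5 ± 0.441 and *Tbl1xr1* from 9.94 ± 0.759 to 4.76 ± 0.434. All 5 MEF2 and class IIa target genes were called, 2 higher and 3 lower, with a median of -0.78. *Klf2*, a quiescence and homing transcription factor, fell from 21.0 FPKM ± 2.44 to 2.30 ± 0.341 (-3.14, limma adjusted p = 2.10e-06), and *Nr4a2*, an orphan nuclear receptor induced by T cell receptor signals, rose from 25.5 ± 1.43 to 43.3 ± 3.66 (0.76, limma adjusted p = 5.72e-05).

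Genes tied to the class IIb and IV enzymes were called higher more than lower, against 24.2% and 27.6% of all genes tested. Of 9 tested substrates and partners of HDAC6 7 rose, 1 fell, and 1 did not pass, with a median of 0.39. The 1 that fell was *Cttn*, from 2.02 FPKM ± 0.357 to 0.599 ± 0.0945 (-1.60, limma adjusted p = 8.58e-05). The α-tubulin gene *Tuba1c* rose from 38.8 FPKM ± 1.24 to 63.0 ± 1.48 and *Tuba4a* from 55.5 ± 1.86 to 89.4 ± 5.99, although the α-tubulin genes are close in sequence and can share reads. Of 10 polyamine genes 6 rose, 1 fell, and 3 did not pass, with a median of 0.41. *Oaz2*, an antizyme of ornithine decarboxylase, rose from 12.7 FPKM ± 0.516 to 19.0 ± 0.924, and *Srm*, spermidine synthase, from 134 ± 6.73 to 254 ± 30.5. *Shmt2*, whose enzyme is a substrate of HDAC11, rose from 132 FPKM ± 5.11 to 194 ± 4.30 (0.55, limma adjusted p = 1.05e-05), and the other gene of that list was too low to be tested. In HDAC1cKO cells limma called none of the 54 tested genes of these 8 lists, against 0.0719% of all genes. Of the 54, 12 had an unadjusted p under 0.05, against 1997 of all 13913 genes tested. *Klf2* was at 4.80 ± 0.927 FPKM in WT and 1.58 ± 0.564 in HDAC1cKO cells (adjusted p = 0.147) and *Tbl1xr1* at 11.6 ± 0.973 and 6.77 ± 0.781 (adjusted p = 0.134).

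**Figure D5:**
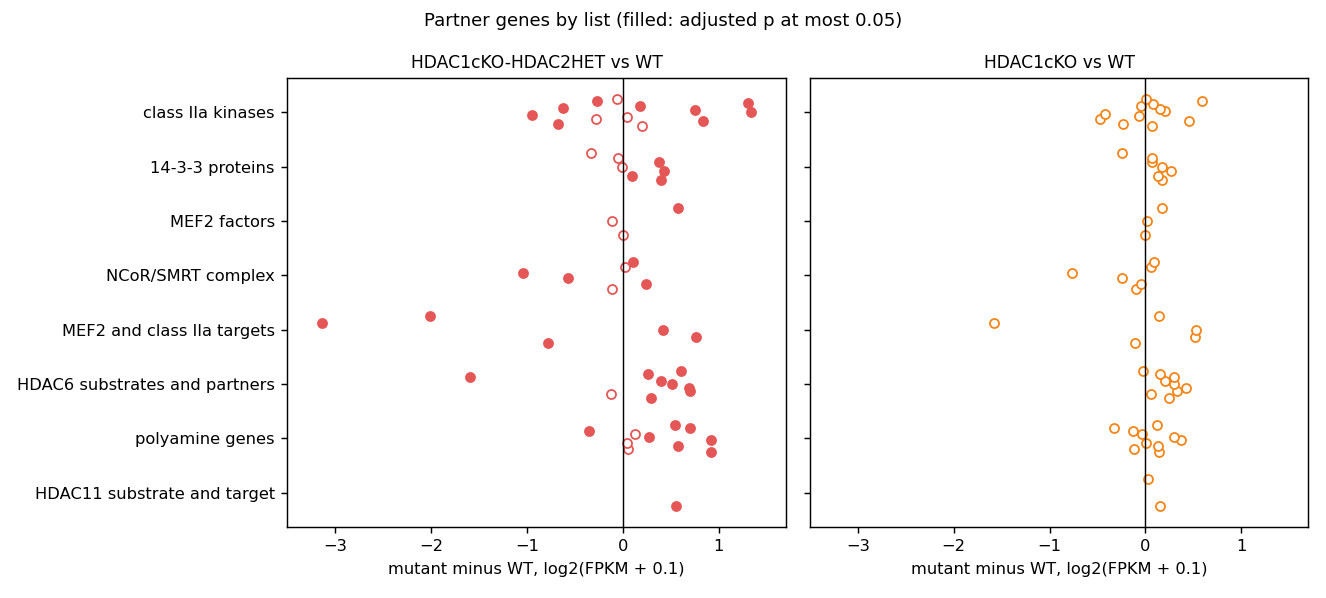
Mutant minus WT on the log2(FPKM + 0.1) scale (x axis) of every tested gene in 8 lists of partner genes (y axis), filled where the adjusted p was at most 0.05. In HDAC1cKO-HDAC2HET cells (left) most genes of the HDAC6 and polyamine lists lie above 0 while the class IIa lists lie on both sides, and in HDAC1cKO cells (right) no point is filled.

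The surroundings of the genes were also read. The nearest protein-coding gene on each side gave 14 neighbours, of which 10 were tested, and in HDAC1cKO-HDAC2HET cells 2 were called higher and 5 lower, or 7 of 10 against 51.8% of all genes tested. Next to *Hdac10* (chr15:89123307-89128700, minus strand) both fell: *Tubgcp6*, at a distance of 195 bases, went from 10.1 FPKM ± 0.936 to 8.53 ± 0.347 (-0.24, limma adjusted p = 0.0199), and *Mapk12*, at 1884 bases, from 3.98 ± 0.882 to 1.95 ± 0.392 (-0.98, limma adjusted p = 0.00337). *Twist1*, which encodes a basic helix-loop-helix repressor and is the left neighbour of *Hdac9*, fell from 3.01 FPKM ± 0.363 to 0.457 ± 0.174 (-2.52, limma adjusted p = 5.62e-05). *G6pc3*, which lies 351 bases beyond the 3′ end of *Hdac5* (chr11:102194432-102230166, minus strand), rose from 27.1 FPKM ± 0.967 to 38.8 ± 2.23 (0.52, limma adjusted p = 6.33e-05), and *BC030867* on its other side fell by 0.53 (adjusted p = 0.0186). Next to *Hdac7*, *Rapgef3* rose at a very low level (0.84 on the log2 scale, adjusted p = 0.00267), and *Vdr* did not pass the test (adjusted p = 0.729). *Nup210* next to *Hdac11* (chr6:91156665-91174692, plus strand) fell by 0.27 (adjusted p = 0.00520), and *Ndufa10* next to *Hdac4* and *Gata1* next to *Hdac6* (chrX:7930120-7947889, minus strand) did not pass (adjusted p = 0.233 and 0.272). In HDAC1cKO cells limma called none of the 10, and none had an unadjusted p under 0.05. Other annotated genes inside the spans of the members were noncoding or unclassified genes and a pseudogene, and where they had a value none exceeded 0.637 FPKM.

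Likeness between patterns was read as Pearson's r over the 14 samples of log2(FPKM + 0.1), centred on the mean of each experiment, against up to 8976 other protein-coding genes. It is a description over samples that share libraries and genotype. Among the members the highest values were 0.771 for *Hdac4* with *Hdac7*, 0.738 for *Hdac7* with *Hdac9*, 0.731 for *Hdac7* with *Hdac10*, and 0.724 for *Hdac6* with *Hdac10*, whereas *Hdac11* reached at most 0.321 with any other. Among the genes most like each member were *Marf1* (0.982) and *Kat6b* (0.964) for *Hdac4*, *Bbs9* (0.933) and *Kif18b* (0.907) for *Hdac5*, and *Ctc1* (0.970) for *Hdac7*. They were *Ncf4* (0.942) and *Vps72* (0.928) for *Hdac9*, *Wee1* (0.907) and *Irf3* (0.872) for *Hdac6*, *Hnrnpl* (0.948) and *Ncstn* (0.941) for *Hdac10*, and *Idh3a* (0.927) and *Cd3eap* (0.902) for *Hdac11*. *Kat6b*, a histone acetyltransferase gene, fell by 0.51 on the log2 scale in HDAC1cKO-HDAC2HET cells (limma adjusted p = 1.82e-04).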

How the data were processed

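RNA-Seq libraries of activated mouse CD4+ T cells (14 samples in 2 experiments) were analysed from 1 file per library. Per the authors' methods, single 50-bp reads were aligned to mm10 by TopHat, and Cufflinks then gave the deposited FPKM and its 95% bounds for each library on its own. The submitters' processing notes also name FastQC, STAR 2.5.2b, Subread 1.5.1, R 3.4, and edgeR, whose output was not used here. FPKM is scaled to library size and length and is not a count, so no count test was run.

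Rows were joined by Ensembl identifier. Where a file had none, the unnamed locus that shared at least 0.8 of the joint span with a gene or transcript of GENCODE M21 (GRCm38) was taken. The same minimum held between the loci that stood for a gene in different samples of an experiment. A gene whose locus matched by position was listed at 0 was left out (3435 and 3250 genes), and all members had a value in all samples. Most member values were matched by position.

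Depth was estimated from the bounds at low FPKM, where 81.3% to 88.9% of low genes gave a whole number of fragments within 0.05. Fragments behind a single value were derived from its bounds as if they held counting error alone, and such intervals cover counting error only.

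FPKM plus a pseudocount of 0.1 was log2-transformed and fitted per experiment in limma (version 3.58.1, R 4.3.3) with an intensity trend. Genes averaging 0.1 FPKM or more were tested, and p-values were adjusted (Benjamini-Hochberg) over all of them. Fold changes on this scale understate those of low genes. The difference between experiments was a contrast over 14 samples. Exact permutation tests were 2-sided, over 70 or 20 arrangements. Per the authors' methods, samples of the first experiment were separate cell batches of 1 day. The labels do not tie samples to animals, so p-values measure only the spread between these samples, which may be partly technical. Same-numbered samples did not deviate together. The test was run on simulated data first.

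Named were the members, class I genes, overlapping and nearest genes, the 2 genes of each partner list with the smallest adjusted p in HDAC1cKO-HDAC2HET cells, and the 2 genes most like each member (mean FPKM of at least 1), of which 1 is not reported here. The members, lists, and rules were chosen with earlier results of these data known. Alternatives changed the pseudocount, filter, scaling, variance model, matching, gene types, block, sex covariate, and each sample in turn. Python tables used numpy 2.4.6, pandas 2.3.3, and scipy 1.17.1, and plots used matplotlib 3.10.9.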

Additional observations from a re-analysis of the deposited data

Results flagged for a closer look

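The value of *Hdac5* in HDAC1cKO-HDAC2HET replicate 4, 14.5 FPKM, stood apart from the other 3 samples of its group, which lay at 13.7 to 13.8. Its gap to the nearest of them was 0.838 of the whole range of the group. The group was narrow, with an SD of 0.374 FPKM, and replicate 4 was the most deeply sequenced library. Among the 14 groups of 4 tested this way, chance flags about 1 in 20. No member passed the test of the difference between the experiments.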

How the results depend on the processing

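In HDAC1cKO-HDAC2HET cells 4 members were called lower in each refit that left out 1 sample, with *Hdac7* between -0.93 and -0.80 and *Hdac9* between -1.08 and -0.69 on the log2 scale. With named rows only, 474 genes were higher and 543 lower. No member carried its name in every sample, so none was tested there. Without the intensity trend 1 member (*Hdac11*) was higher. Median scaling turned the split of all calls to 4461 higher and 3247 lower. *Hdac9* was at -0.28 with a pseudocount of 1 and -1.22 with 0.01, and was not tested with a filter at a mean FPKM of 1. With a replicate block *Hdac9* had an adjusted p of 0.0503, and *Hdac7* lost its call with all rows of its span added (-1.37). *Hdac5* ranged from -0.021 (without WT replicate 1) to 0.052 with 1 sample left out.

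In HDAC1cKO cells no member was called under any alternative, and the counts of genes higher were 5 (pseudocount of 0.01), 1 (no filter), 9 (filter at a mean FPKM of 1), 6 (quantile normalization), 6 (median scaling), 1 (named rows, with 5 lower), 0 (no trend), 0 (replicate block, with 5 lower), 24 (sex covariate, with 40 lower), 16 (protein-coding genes), and 644 (1 fit over 14 samples, with 711 lower). Leaving out 1 sample gave 2 to 24 genes higher and 7 to 31 lower. Some alternatives gave members an unadjusted limma p under 0.05. Among them, the fit over 14 samples gave 0.0146 for *Hdac4*, 0.012 for *Hdac7*, and 0.0288 for *Hdac9*. For *Hdac7* it was 0.0401 with quantile normalization and 0.0462 with protein-coding genes. Without WT replicate 1 it was 0.000219 for *Hdac7* and 0.0186 for *Hdac5*. With the sex covariate, which set the mutants against WT replicate 2 alone, *Hdac7* was at -0.86, *Hdac9* at -1.85, *Hdac5* at -0.75, *Hdac6* at -0.12, *Hdac10* at -0.28, and *Hdac11* at -0.64. With 1 sample left out *Hdac4* ranged from -0.58 to -0.212 (without HDAC1cKO replicate 2), *Hdac5* from -0.577 (without WT replicate 1) to -0.073 (without WT replicate 2), *Hdac7* from -0.771 to -0.336 (without WT replicate 2), and *Hdac9* from -1.294 to -0.48 (without WT replicate 2). *Hdac10* ranged from -0.218 to 0.173, negative without WT replicate 1 or HDAC1cKO replicate 2, and *Hdac11* from -0.224 to 0.399, negative without WT replicate 1, WT replicate 3, or HDAC1cKO replicate 3.

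For the difference, 38 genes were higher and 16 lower with named rows, 615 lower with the block, and 485 lower with the sex covariate. Between 0 and 1 member was higher and 0 and 1 lower with 1 sample left out: *Hdac5* (0.60, adjusted p = 0.0188) without restimulated WT replicate 1 and *Hdac6* (-0.40, adjusted p = 0.0473) without replicate 2. *Hdac9* was at -0.16 with the pseudocount of 0.01 and ranged from -0.434 to 0.38 with 1 sample left out, negative in 5 refits, and *Hdac11* from -0.118 to 0.504, negative in 2. The causes of these changes were not tested. A sex covariate could not be fitted in the first experiment. Same-numbered samples correlated between -0.020 and 0.046 in their deviations, a check that gave no sign of pairing but with so few samples cannot exclude it. The block changed no other call of a member. Depth limits *Hdac9* and *Hdac11*.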
